A study of Mus musculus with 2 samples.

Results

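The 9 genes described here encode the lipases that act on lipoproteins in plasma and the proteins that fold, anchor, inhibit or complement them. They are Lpl, Lipc, Lipg, Lmf1, Gpihbp1, Angptl4, Angptl8, Pltp and Lcat. They were chosen by name, and each was found on the arrays through the transcript accession of its probes. All 9 were measured, by 11 of the 55681 probes, and they belong to the 13881 named genes whose signal was well above background on both arrays. The arrays compared pooled liver RNA of CREBH-Tg mice with pooled liver RNA of wild-type (WT) mice. CREBH-Tg mice carry human CREBH cDNA coding for the active protein, expressed mainly in the liver, and both genotypes were on the C57B6J background. CREBH, the product of Creb3l3, is a liver-enriched transcription factor of the CREB/ATF family with known roles in plasma triglyceride handling. Both genotypes had eaten the HFHS diet for 12 weeks. The sex, the age, the number of mice per pool and the promoter of the transgene are not given in the sources used here. Each genotype was read on 1 Agilent 1-colour array, so no difference has an error between animals, and none carries a test.

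Triglyceride-rich lipoproteins are unloaded in capillaries, where lipoprotein lipase cuts their triglycerides and frees fatty acids for the tissue. The enzyme is made by parenchymal cells, needs a maturation factor to fold, is carried across and held at the endothelium by an anchoring protein, and is inhibited by angiopoietin-like proteins. Hepatic lipase and endothelial lipase act further on remnants and on high-density lipoprotein (HDL), and plasma transfer and acyltransferase proteins from the liver remodel HDL. In adult liver, hepatocytes make hepatic lipase, the inhibitors and the HDL-remodelling proteins, while lipoprotein lipase is made at low levels.

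None of the 9 transcripts differed strongly between the livers. None was 2-fold apart, where 1.33% of all 13881 genes were, and none was 1.5-fold apart, where 4.55% of all genes were. Log2 ratios of CREBH-Tg over WT ran between -0.26 for Lipg and 0.32 for Lcat. Their median was 0.028, and that of all genes was 0.027. In size, regardless of direction, their median was 0.16, against 0.12 for all genes. The highest was Lcat, the HDL acyltransferase, at 1.25-fold, followed by lipoprotein lipase (Lpl) at 1.17-fold, hepatic lipase (Lipc) at 1.13-fold and the transfer protein Pltp at a log2 ratio of 0.14. Angptl4, an inhibitor of lipoprotein lipase, had a log2 ratio of 0.028. Angptl8 and Lipg lay below 0, at -0.16 and -0.26. Lmf1 and Gpihbp1 lay at -0.038 and -0.066 and above 0 when arrays were scaled to the median.

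The measure of error was the scatter of repeated spots. Probes spotted at least 5 times gave SDs of single-spot log2 ratios of 0.20, 0.085 and 0.048 in the dimmest, middle and brightest of 3 equal classes of genes by signal. Their 95% ranges were 0.40, 0.17 and 0.095 to either side of 0. The median log2 ratios of all genes in these classes were -0.0026, 0.011 and 0.051, and the ranges were not shifted to them. Of the 9 genes, 5 lay beyond the range of their class, against 34.1% of all genes. Above it lay 4, Lcat, Lpl, Lipc and Pltp, against 21.0% of all genes, and below it 1, Angptl8, against 13.2%. Among the 6 genes in the brightest class 3 lay beyond it, where 51.6% of that class did. Both genes of the middle class, Lpl and Lipc, lay beyond it, where 30.4% of that class did. Lipg, the 1 gene in the dimmest class, lay within it, where 20.4% of that class lay beyond. The split of 4 above and 1 below depended on the scaling. Under loess, which takes out the trend of the ratio with signal, Lipc at 0.15 lay within its range of 0.17. Gpihbp1 at -0.11 and Lmf1 at -0.096 then lay below their range of 0.094. Spot scatter holds nothing of the variation between mice, between pools or between hybridisations. The scanner software assigns each spot a wider error, near 10% of the signal for 10 of the 11 probes, which gives a 95% range of 0.40 for the log2 ratio of a bright probe. By that error 0 of the 9 genes differed, against 7.83% of all genes.

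**Figure D1:**
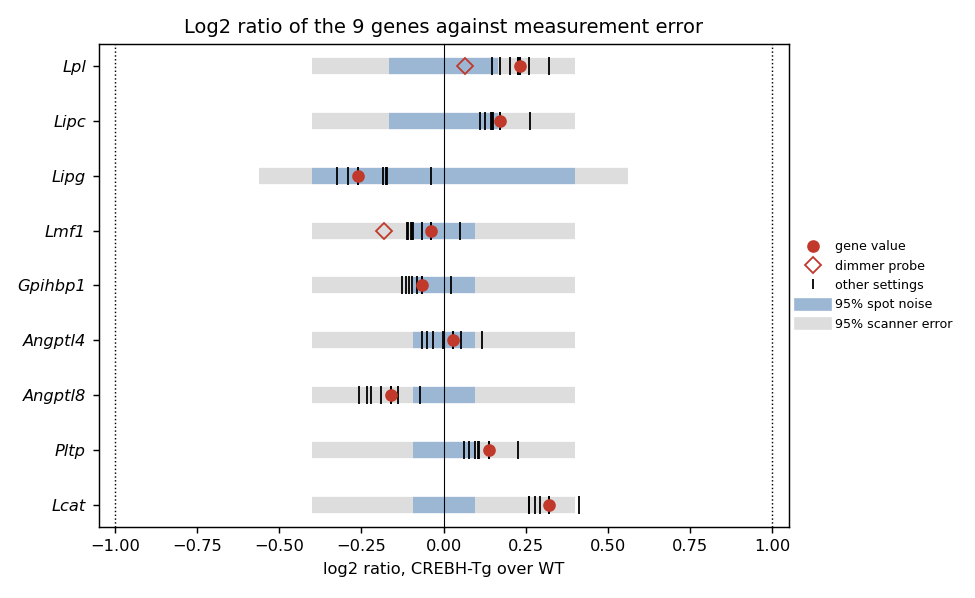
Log2 ratio of CREBH-Tg over WT for the 9 genes (red circles), for the dimmer probes of Lpl and Lmf1 (open diamonds), and under the other processing settings (black ticks). Blue bars span the 95% range of spot noise, grey bars that of the scanner software's error, and dotted lines mark 2-fold. All 9 red circles lie within the grey bars, and those of Lcat, Lpl, Lipc, Pltp and Angptl8 lie outside the blue ones.

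**Figure D2:**
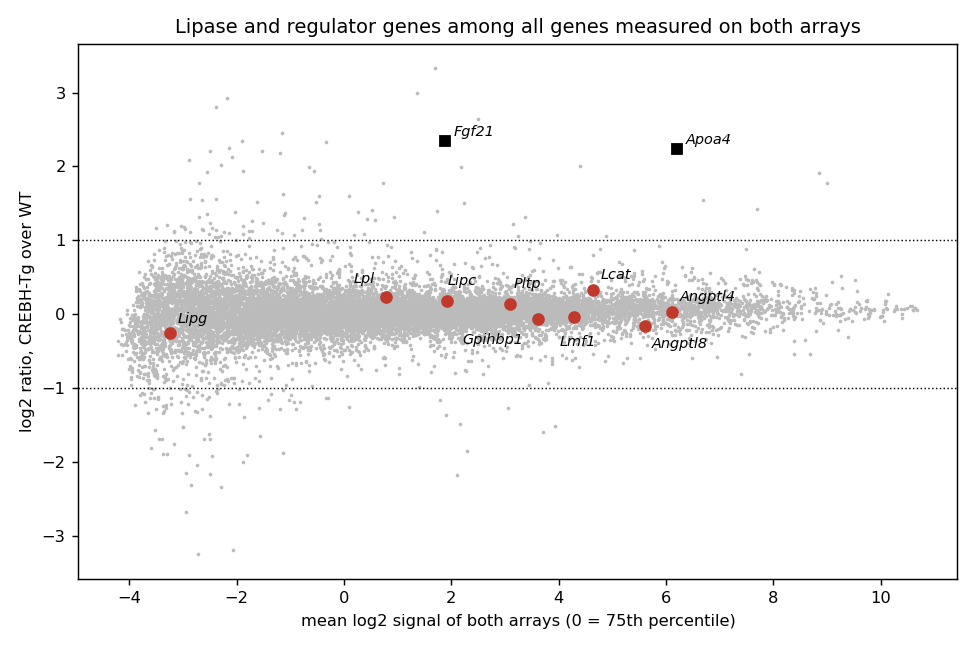
Log2 ratio of CREBH-Tg over WT against mean log2 signal for the 13881 genes measured on both arrays (grey dots), with the 9 lipase and regulator genes in red. The red points lie inside the cloud between -0.26 and 0.32, while Fgf21 at 2.34 and Apoa4 at 2.23 (black squares) lie above the dotted 2-fold line.

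Promoter sequence is shown for 3 of the genes. They are Lcat, the farthest above 0, Angptl8, the farthest below 0 among the bright genes, and Lmf1. Lmf1 was taken because its window alone held TGACG, a part of the element that CREB/ATF factors bind. A RefSeq table on GRCm38.p6 held 6 start-site windows for 5 of the 9 genes, Angptl8, Lcat, Lipc, Lmf1 and Pltp. Lpl, Lipg, Angptl4 and Gpihbp1 were not matched. In the 250 bases before each start, exact matches on both strands were sought to TGACG (one side of the cAMP response element that CREB/ATF factors bind), CCACG (the end of the endoplasmic reticulum stress element), AGGTCA (one side of a nuclear receptor site), the CCAAT box, the TATAAA form of the TATA box and the C/EBP-ATF composite element TGATGCAAT. The last was added after the Angptl8 sequence had been seen. Its match there was thus fixed beforehand, and its share of all windows lends that match no weight. Capitals mark every match, on either strand, and each sequence is read along the gene's own strand.
Lcat: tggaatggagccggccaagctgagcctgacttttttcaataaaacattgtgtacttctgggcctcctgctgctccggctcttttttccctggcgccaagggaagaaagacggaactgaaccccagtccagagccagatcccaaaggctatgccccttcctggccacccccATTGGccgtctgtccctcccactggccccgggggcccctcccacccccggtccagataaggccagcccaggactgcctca
Angptl8: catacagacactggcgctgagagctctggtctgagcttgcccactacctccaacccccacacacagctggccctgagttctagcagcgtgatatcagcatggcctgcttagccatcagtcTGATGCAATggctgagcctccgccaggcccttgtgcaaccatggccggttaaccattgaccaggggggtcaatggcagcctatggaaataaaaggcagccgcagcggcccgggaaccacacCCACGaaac
Lmf1: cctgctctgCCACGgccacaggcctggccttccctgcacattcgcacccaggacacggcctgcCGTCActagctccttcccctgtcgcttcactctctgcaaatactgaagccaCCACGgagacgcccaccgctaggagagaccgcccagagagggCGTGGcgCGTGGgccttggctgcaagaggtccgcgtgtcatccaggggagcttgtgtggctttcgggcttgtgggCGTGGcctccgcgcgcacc
The Lcat window, chr8:105943403-105943652 on the minus strand, held CCAAT, in reverse, as its only match, at -80 from the start. CCAAT was found in 33.8% of all 32851 windows. The Angptl8 window, chr9:21835260-21835509 on the plus strand, held TGATGCAAT at -130, a match found in 0.167% of windows, and CCACG at -9, found in 28.3%. The Lmf1 window, chr17:25578924-25579173 on the plus strand, held TGACG, in reverse at -187, and 5 matches to CCACG. It was the only one of the 6 windows with TGACG, which 17.8% of all windows held. The share of 28.3% for CCACG counts windows with any number of matches. The Lmf1 window was 66.8% GC, against a median of 52.4% for all windows. A match is a string of letters and shows no binding.

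Lipoprotein lipase and the genes that mature and anchor it came first in the pathway. Lpl, the capillary triglyceride lipase, was read by both of its probes. Its brighter probe had a processed intensity, before scaling between arrays, of 575.3 in CREBH-Tg and 528.5 in WT, or log2 signals of 0.90 and 0.67 relative to each array's 75th percentile. That is a log2 ratio of 0.23, beyond its spot-noise range of 0.17 and larger in size than the ratio of 81.4% of genes in the middle class. The dimmer probe had 142.6 in CREBH-Tg and 147.1 in WT, a scaled log2 ratio of 0.064, well inside its range of 0.40. The probes thus differed by 0.17, where the median over the 3376 genes with several probes was 0.13. So the higher Lpl value rested on 1 of its 2 probes.

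Lmf1, the membrane protein of the endoplasmic reticulum that lipases need to reach their active form, also had 2 probes. The brighter gave 5960 in CREBH-Tg and 6599 in WT, at log2 signals of 4.27 and 4.31, and its log2 ratio of -0.038 was within spot noise. The dimmer gave 667.1 in CREBH-Tg and 815.6 in WT and a log2 ratio of -0.18, just beyond its range of 0.17. Over 10 settings of the processing the gene's value ran from -0.11 to 0.051. It was below 0 in 9 of them, below the spot-noise range in 4, and above 0 under median scaling.

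Gpihbp1, which binds lipoprotein lipase and carries it to the capillary lumen, had 1 probe. It gave 3700 in CREBH-Tg and 4176 in WT, with log2 signals of 3.58 and 3.65. The log2 ratio, -0.066, was within spot noise. Across 7 scalings and background models it ran from -0.13 in the authors' table to 0.023 under median scaling, its only value above 0. It was below the spot-noise range in 4. Only 34.4% of the brightest genes had a ratio of smaller size.

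The inhibitors of lipoprotein lipase differed little. Angptl8 was slightly lower, and the direction of Angptl4 was not settled. Angptl4, induced by fasting and by fatty acids through PPAR nuclear receptors, was among the bright genes, with 21570 in CREBH-Tg and 22821 in WT. After scaling its log2 signals were 6.13 in CREBH-Tg and 6.10 in WT, and the log2 ratio of 0.028 changed sign with the scaling, between -0.065 and 0.12. It was beyond spot noise in 1 of 7 scalings and background models, the median-scaled values. Angptl8, induced by feeding and insulin, gave 14239 in CREBH-Tg and 17167 in WT, at log2 signals of 5.53 and 5.69. Its log2 ratio of -0.16, or 1.12-fold lower, was beyond its spot-noise range of 0.095. It lay below 0 under all 7 scalings and background models, from -0.26 with quantile normalization to -0.072 with median scaling. Only the median-scaled value was within spot noise. In the brightest class 71.3% of genes had a ratio of smaller size.

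Of the other lipases, Lipc, the hepatic lipase that acts on remnants and HDL, gave 1244 in CREBH-Tg and 1190 in WT. Its log2 signals were 2.01 and 1.84, and the log2 ratio of 0.17 only just passed its spot-noise range. Across 7 scalings and background models it ran from 0.11 to 0.26 and passed the range in 3. Lipg, the endothelial lipase that cuts HDL phospholipids, was dim. Its raw median spot signal was 77 in CREBH-Tg and 87 in WT over local backgrounds of 55 and 50. The processed intensities were 29.9 in CREBH-Tg and 38.7 in WT, and only 5.48% of measured genes were dimmer. The log2 ratio of -0.26 was inside spot noise in all 9 settings that measured it, and it shrank to -0.038 under normexp, a background model whose added offset pulls dim ratios towards 0.

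The genes of both HDL-remodelling proteins had log2 ratios above 0 under every setting, but only that of Lcat was always beyond spot noise. Lcat, which esterifies HDL cholesterol, gave 8641 in CREBH-Tg and 7456 in WT, at log2 signals of 4.81 and 4.49. The ratio of 0.32 was more than the spot-noise range of 0.095 and larger in size than that of 92.0% of the brightest genes. It was beyond spot noise under all 7 scalings and background models, from 0.26 to 0.41. The highest of those values came from median scaling. It was the 1 value among the 9 genes and all settings to pass the scanner software's range of 0.40 for that spot. Pltp, which transfers phospholipids from triglyceride-rich particles to HDL, gave 2757 in CREBH-Tg and 2704 in WT, at log2 signals of 3.16 and 3.02. Its raw median spot signals ran the other way, 2912.5 in CREBH-Tg and 2998 in WT, before scaling to the 75th percentile, which was 308.7 on the CREBH-Tg array and 332.9 on the WT array. The log2 ratio of 0.14 was larger in size than that of 64.3% of the brightest genes. It was beyond spot noise in 5 of 7 scalings and background models. Normexp on those raw signals gave 0.062 and the authors' table gave 0.076, both within it.

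**Figure D3:**
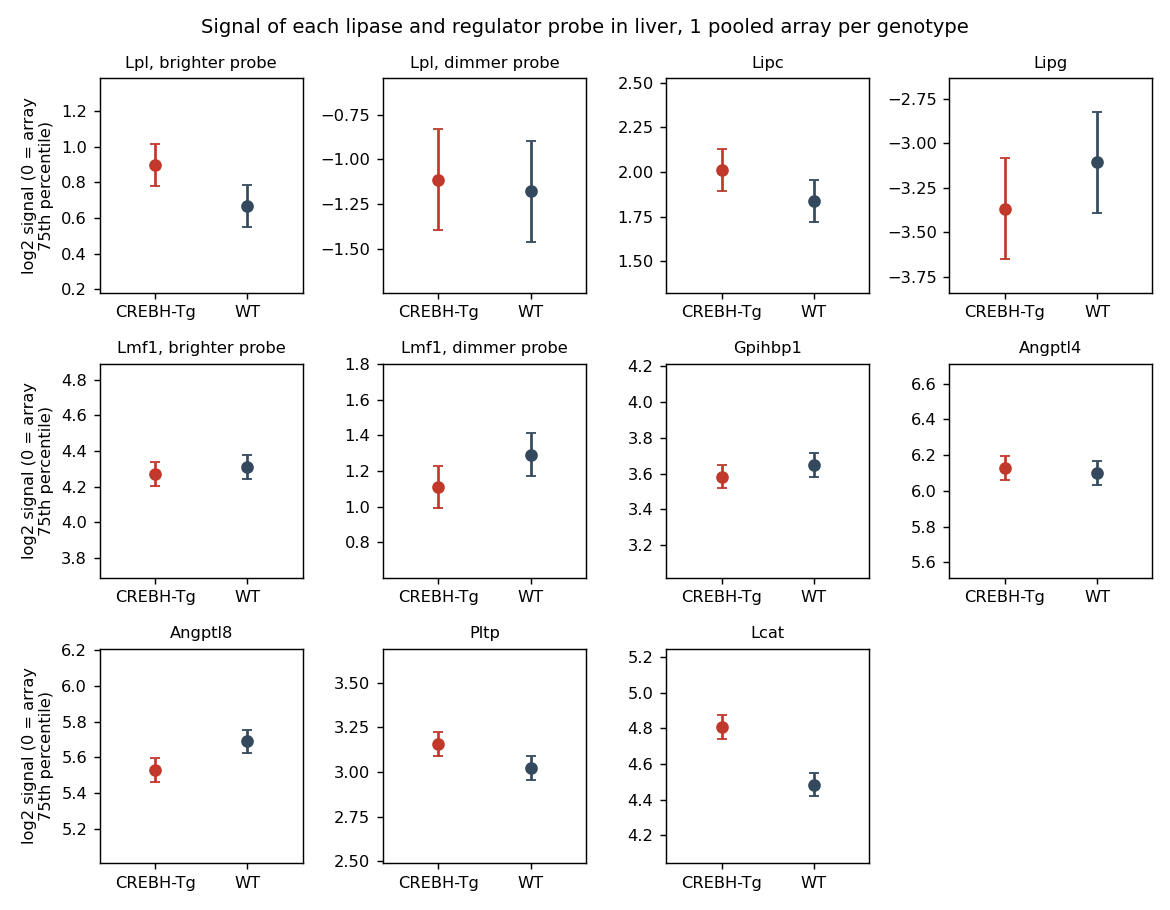
Log2 signal of each of the 11 probes on the CREBH-Tg array (red) and the WT array (blue), where 0 is the array's 75th percentile. Error bars are the 95% range of spot noise for a ratio divided by the square root of 2, and every panel spans the same height, though from a different level. The bars of Lcat stand farthest apart, those of Angptl8 do not meet and those of Pltp just miss each other. All others overlap, including those of Lipc and the brighter Lpl probe, whose ratios pass the spot-noise range.

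The partners of the lipases were followed in lists of genes. Of the apolipoproteins and other cofactors and inhibitors of lipoprotein lipase, 7 of 8 were measured and Apoc2, the activator, had no probe named by accession. Their median log2 ratio was 0.11, from -0.0035 under loess to 0.20 under median scaling, and 1 gene passed 2-fold upward, where 0.663% of all genes did. None passed it downward, where 0.670% of all genes did. That 1 gene was Apoa4, an intestinal and hepatic apolipoprotein, with log2 signals of 7.32 in CREBH-Tg and 5.09 in WT. Apoa5, which promotes lipoprotein lipase action, had 4.43 in CREBH-Tg and 4.06 in WT, a ratio of 0.36. Apoc3, which slows lipolysis, had 9.73 in CREBH-Tg and 9.67 in WT, a ratio of 0.062 within spot noise. So Apoa4 and Apoa5 were farther from 0 than any of the 9 genes.

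Genes that fold, anchor or cleave lipases lay close together. All 15 were measured, with a median of 0.097 (0.036 to 0.19 over the settings) and none 1.5-fold apart. The farthest from 0 was Pcsk5, a proprotein convertase, at 0.28 and within the noise of its dim class. Genes of HDL formation had a median of 0.13 (0.064 to 0.21) over 8 genes, and Apom, the HDL apolipoprotein M, was farthest at 0.48. Genes of very-low-density lipoprotein (VLDL) assembly and remnant uptake had a median of 0.014 over 11 genes, on either side of 0 with the settings (-0.054 to 0.10). The farthest there was Vldlr, the VLDL receptor, at 0.45.

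Intracellular and other lipases had a median of 0.062, on either side of 0 with the settings (-0.072 to 0.15), over the 10 measured of 17. The other 7, among them the pancreatic lipase Pnlip, stayed near background on both arrays. G0s2, an inhibitor of adipose triglyceride lipase, was 1.56-fold higher, with log2 signals of 4.54 in CREBH-Tg and 3.90 in WT. Of the remaining angiopoietin-like genes 3 of 5 were measured. Angptl2, a secreted factor of inflammation, was the farthest at 0.80, and it was dim, with log2 signals of -2.89 in CREBH-Tg and -3.68 in WT.

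Transcription factors that act on lipase genes had a median of 0.013 (-0.048 to 0.10) over 15 genes, and Srebf1, the lipogenic regulator, was the farthest from 0 at -0.34. Creb3l3 itself had log2 signals of 6.97 in CREBH-Tg and 6.97 in WT, a ratio of -0.0041. Its probe is for the mouse transcript and may not read the human cDNA, so it is no check of the labels. Targets of PPAR alpha, the receptor that also acts on Angptl4, had a median of 0.14 (0.058 to 0.23) over 15 genes. In that list Fgf21, a liver hormone, stood at 2.34 and Cyp4a10, a fatty acid omega-hydroxylase, at 0.63, while Angptl4 itself was at 0.028. Cyp4a10 belongs to a family of similar sequences whose probes can cross-hybridise.

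**Figure D4:**
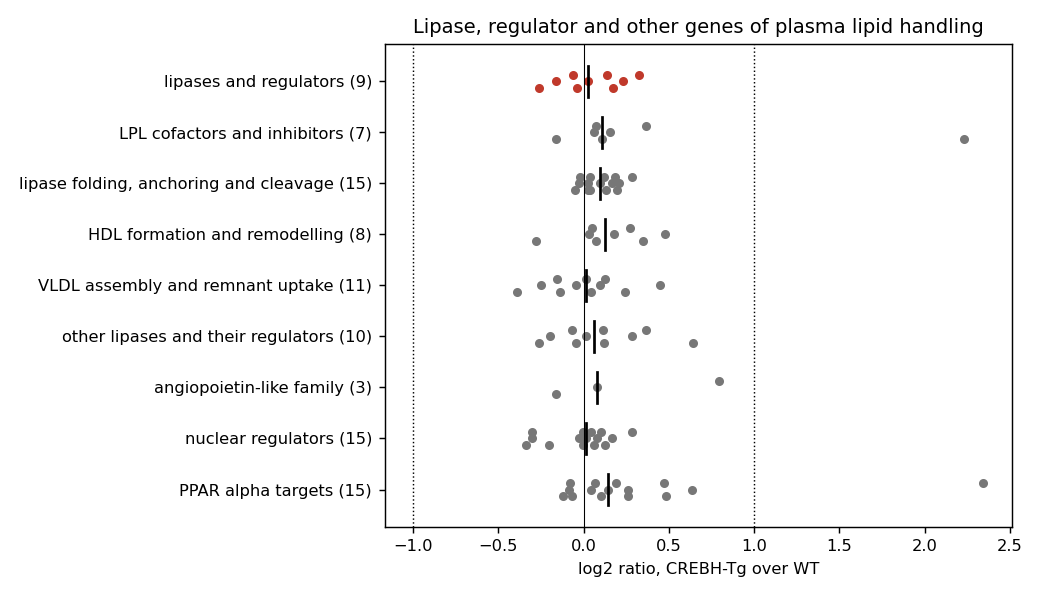
Log2 ratio of CREBH-Tg over WT for the 9 lipase and regulator genes (red) and for the measured genes of the other lists (grey), with the number of genes in brackets, medians as black bars and dotted lines at 2-fold. Medians lie between 0.013 and 0.14, and Apoa4 and Fgf21 are the only points beyond 2-fold.

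Markers of the cells that the liver RNA could hold were read beside these genes. Hepatocyte markers were all measured, 7 of 7, with a log2 of their summed signals of 12.81 in CREBH-Tg and 12.72 in WT. Endothelial markers, beside Gpihbp1 and Lipg, were measured for 10 of 10, with a log2 of the summed signals of 6.93 in CREBH-Tg and 6.80 in WT and a median ratio of 0.074. Lpl is also made by macrophages and adipocytes. Macrophage markers were measured for 10 of 12, with a log2 of the summed signals of 7.27 in CREBH-Tg and 7.40 in WT and a median of -0.069. They went both ways, and only 3 of the 10 had log2 ratios above 0. Among those 3, Trem2 was 2.20-fold and Itgax 1.33-fold higher, both dim. The rest lay below 0, with Marco 1.94-fold, Adgre1 1.26-fold and the dim Ccr2 1.24-fold lower. Gpnmb, not well above background in WT, was at least 2.04-fold higher. Adipocyte markers were measured on both arrays for 5 of 7, with a log2 of the summed signals of 2.91 in CREBH-Tg and 2.71 in WT and a median of 0.38. Of these 5, 4 had log2 ratios above 0. They were Adipoq, the adipocyte hormone adiponectin, at 2.21, Retn at 1.55, Cfd at 0.38 and Plin4 at 0.16. Cidea, a lipid droplet protein, lay below 0 at -1.88. Adipoq, Retn and Cidea were dim. Plin1 and Lep were well above background in CREBH-Tg but not in WT, and each was at least 1.24-fold higher in CREBH-Tg. The part of these cells in the Lpl value was not tested. In RNA of whole tissue, more cells of a type and more RNA per cell cannot be told apart.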

How the data were processed

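Liver RNA of CREBH-Tg and WT mice was measured on 2 Agilent 1-colour arrays, 1 pooled sample each, labelled with Cy3 as cRNA per the labels' protocols. Agilent Feature Extraction 10.10.1.1 made the files and their annotation refers to mm9, per the file headers. The processed signal the authors deposited is a linear intensity with background and spatial trend removed, and no scaling between the arrays. The deposited median spot signal is a raw intensity, and the signal error is the software's own. The authors' value table holds the same intensity times 1 constant per array, 2.68 for CREBH-Tg and 2.59 for WT, by a rule not given in the sources used here. Of 59305 non-control spots, 58.3% in CREBH-Tg and 55.4% in WT were well above background and none was saturated.

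Log2 processed signals were scaled to each array's 75th percentile. A total of 300 outlier spots were dropped, and spots of a probe were averaged. A gene took the value of its brightest probe with over 50% of spots well above background on both arrays. Probes were named through transcript accessions in a RefSeq table of GRCm38.p6, which named 27233 of 55677 probes, and it was used for names only. Promoter windows came from a RefSeq sequence table of the same assembly. The steps were tested on simulated data with changes of more than 2-fold and no offset between the arrays. That did not test the choice of scaling or ratios as small as those of the 9 genes. A gene well above background on 1 array has only a bound. The 2 arrays give 1 difference per gene, so no genes were named for a like pattern. All 9 genes were described, with Apoc3 and Apoa5, every gene of a pathway list at least 1.5-fold apart, and the farthest from 0 in pathway lists with none, except for a gene that is not reported here. The genes and lists were chosen with earlier results of these data known. Cell marker genes and Creb3l3 were named after their values were seen. The alternatives were other scalings, the authors' table, normexp with an offset of 50, the mean over probes, other size thresholds (1.5-fold and 3-fold) and other filters on dim probes. The number of arrays limits the precision. Python 3.11.15, numpy 2.4.6, pandas 2.3.3, R 4.3.3 and limma 3.58.1 were used.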

Additional observations from a re-analysis of the deposited data

How the results depend on the processing

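The count of lipase and regulator genes at least 2-fold apart was 0 under all 9 other settings. It was 0 at a threshold of 1.5-fold, and so necessarily 0 at 3-fold. The count beyond spot noise was 5 or 6 under the 9 settings, though not always of the same genes. Lcat was beyond it in 10 of 10 settings, Lpl and Angptl8 in 9, Pltp in 8, Lipc in 6, Gpihbp1 and Lmf1 in 4 and Angptl4 in 1. Lpl was within it as the mean over its probes, at 0.15 against a range of 0.17. That was the only setting to use its dimmer probe, and all others read Lpl by the brighter probe alone. The mean over probes and the filters on dim probes cannot change the value of a gene with 1 probe, only drop it. Across the 7 scalings and background models alone, Lcat and Lpl were beyond spot noise in 7, Angptl8 in 6 and Pltp in 5. Gpihbp1 was beyond it in 4, Lipc and Lmf1 in 3 and Angptl4 in 1. With the scanner software's own error in place of spot noise, an alternative chosen after seeing the data, the count was 0. Angptl8 moved to -0.26 under quantile normalization. Angptl4, Gpihbp1 and Lmf1 changed sign with the scaling. The medians of 5 of 8 pathway lists changed sign with the settings, and those of the other 3 stayed above 0. Scaling to the median raised the median of all genes by 0.089. Lipg could not be measured under the stricter filter on dim probes. Normexp was run on the median spot signal, since the files read here hold no mean. No paired analysis was possible because each genotype has 1 array, and no array could be left out for the same reason.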
